A study of Mus musculus with 2 samples.

Results

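Opposite-strand RNAs are named after the gene that they face: the suffix os or as is added to the symbol of the gene on the other strand, here called the sense gene. They were collected by that name alone, as rows ending in os or as, with or without a number, whose stem is itself the name of another row of the gene table. The rule found 288 rows with 286 distinct names among 43437 genes. The names Vipas39 and Hras met the rule only by spelling, since Vip and Hr lie on other chromosomes. The remaining 284 RNAs belonged to 241 sense genes.

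The study sequenced RNA from the telencephalon and from the whole body of ICR mouse fetuses at E12.5, in mid-gestation, with 1 library for each. The fetuses were wild type and untreated in both groups. ICR is an outbred stock, and the telencephalon is the foremost brain vesicle, which gives rise to the cerebral cortex and basal ganglia. The labels do not give the number or sex of the fetuses, or say if the head was part of the whole body sample, and the stated aim was to find long non-coding RNAs that differ.

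An RNA transcribed from the strand opposite to a gene can overlap its exons, lie within its introns, or start back to back with it from a shared promoter region. Many such RNAs are capped, spliced and polyadenylated like messenger RNAs, and some, such as the transcript opposite Dlx6 known as Evf, take part in the control of neighbouring genes in the developing forebrain. In the Dlx clusters, pairs of homeobox genes for GABAergic neurons of the ventral telencephalon lie side by side, with opposite-strand RNAs across them. Hox clusters, which pattern the trunk and limbs, also carry many RNAs of this kind.

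Levels are FPKM, fragments scaled by transcript length and by library depth, as the authors deposited them, so the levels of an RNA and of its sense gene can be set side by side. A gene was called measured at 1 FPKM or more in either library. The log2 ratio is that of telencephalon to whole body after adding 1 FPKM to each value, and a log2 ratio of 1 or more in size is called past 2-fold. It understates the change of low genes, and folds in the text are ratios of the FPKM themselves unless called log2. With 1 library per group no difference has a replicate check and no test was possible. Where a ratio of estimated fragments is given, its range is the exact 95% binomial interval and covers counting error only. The low FPKM values gave depths of about 22800000 fragments for telencephalon and 29400000 for whole body. At a transcript length of 2000 bases, 3 fragments correspond to 0.0792 FPKM in telencephalon and 0.0609 FPKM in whole body.

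Markers of the telencephalon were high in the library so labelled. Of 12 telencephalon markers, 11 were past 2-fold higher, with summed levels of 1081 FPKM in telencephalon and 64.3 FPKM in whole body. The 6 liver markers summed to 2.90 FPKM in telencephalon and 2045 FPKM in whole body, and Apoa2 and Serpina1a were listed at 0 in telencephalon. The 6 muscle markers summed to 1.77 FPKM in telencephalon and 671 FPKM in whole body, and 5 erythroid markers to 18.8 FPKM in telencephalon and 679 FPKM in whole body. Endothelial markers were also lower in telencephalon, at 22.8 FPKM in sum against 96.4 FPKM in whole body. In these bulk samples, fewer cells of a type and less RNA per cell cannot be told apart, and the part of tissue makeup in the differences below was not tested.

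By position in the GENCODE M21 annotation of GRCm38, 154 of the 284 RNAs overlapped exons of the sense gene, and 81 overlapped the gene without sharing exon bases. Another 36 lay head to head within 10 kb, 8 lay tail to tail, and 2 were farther apart. Cep112os2 is annotated on the same strand as Cep112, and 2 RNAs were not annotated. The annotation lists 248 of the RNAs as antisense genes and 11 as protein-coding. The kit keeps no record of strand, so fragments in exon bases that an RNA shares with its sense gene cannot be assigned to either, and the shared part of the leading isoform is given for RNAs past 2-fold where it is annotated. At 32 sense genes, 75 RNAs share the sense gene with another member, so the pairs are not all independent.

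Most opposite-strand RNAs were at or near 0 in both libraries. Of the 284, 86 were listed at 0 in both, 46 in telencephalon only and 15 in whole body only. Apart from the 86, 144 were above 0 in at least 1 library but under 1 FPKM in both. The median of the higher of their 2 values was 0.178 FPKM. RNAs at 0 in a single library are counted among these 144 or among the measured RNAs. The other 54 were measured, 19.0% of the members, and 36 of these reached 1 FPKM in telencephalon and 41 in whole body. Low levels of the RNA did not go with low levels of the sense gene throughout: for 58 of the 86 RNAs at 0, the sense gene had 1 FPKM or more, and for 31 it had 10 FPKM or more. Uchl1os, known in mouse dopaminergic cells for raising translation of Uchl1, was listed at 0 in both libraries beside 359 FPKM of Uchl1 in telencephalon and 122 FPKM in whole body. Sox5, a transcription factor of deep-layer cortical neurons, has 5 opposite-strand RNAs. Its own level was 36.5 FPKM in telencephalon, 2.91-fold higher than in whole body, while Sox5os1 had 0.0703 FPKM in telencephalon, Sox5os2 had 0.335 FPKM in whole body, and the others were listed at 0. Uchl1os and the Sox5 RNAs were picked for naming after their values were seen.

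Of the 54 measured RNAs, 8 (14.8%) were past 2-fold higher in telencephalon and 11 (20.4%) past 2-fold lower. Over all 14987 measured genes, 9.39% were higher and 21.2% lower, and over 662 measured long non-coding RNA genes 14.8% were higher and 16.0% lower. The share of opposite-strand RNAs that were higher equalled that of long non-coding RNA genes. Over the 54, the share that were lower lay between those of long non-coding RNA genes and of all genes. The 662 long non-coding RNA genes include non-coding members. The median log2 ratio of the 54 RNAs was 0.05, beside -0.16 for all measured genes and 0.03 for measured long non-coding RNA genes. The 54 include protein-coding members. Over the 47 annotated as non-coding, a split chosen after seeing the data, 7 were higher and 11 lower, with a median of -0.17. The share lower among these 47 lay above those of all genes and of long non-coding RNA genes. Of the 195 measured sense genes, 29 (14.9%) were higher and 45 (23.1%) lower, with a median log2 ratio of -0.08. A gene that is measured through only the library where it is high had to differ, so these counts describe the measured RNAs and not all members: 13 RNAs reached 1 FPKM only in telencephalon and 18 only in whole body. Of the 23 RNAs at 1 FPKM or more in both libraries, 3 were past 2-fold higher and 2 lower.

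**Figure D1:**
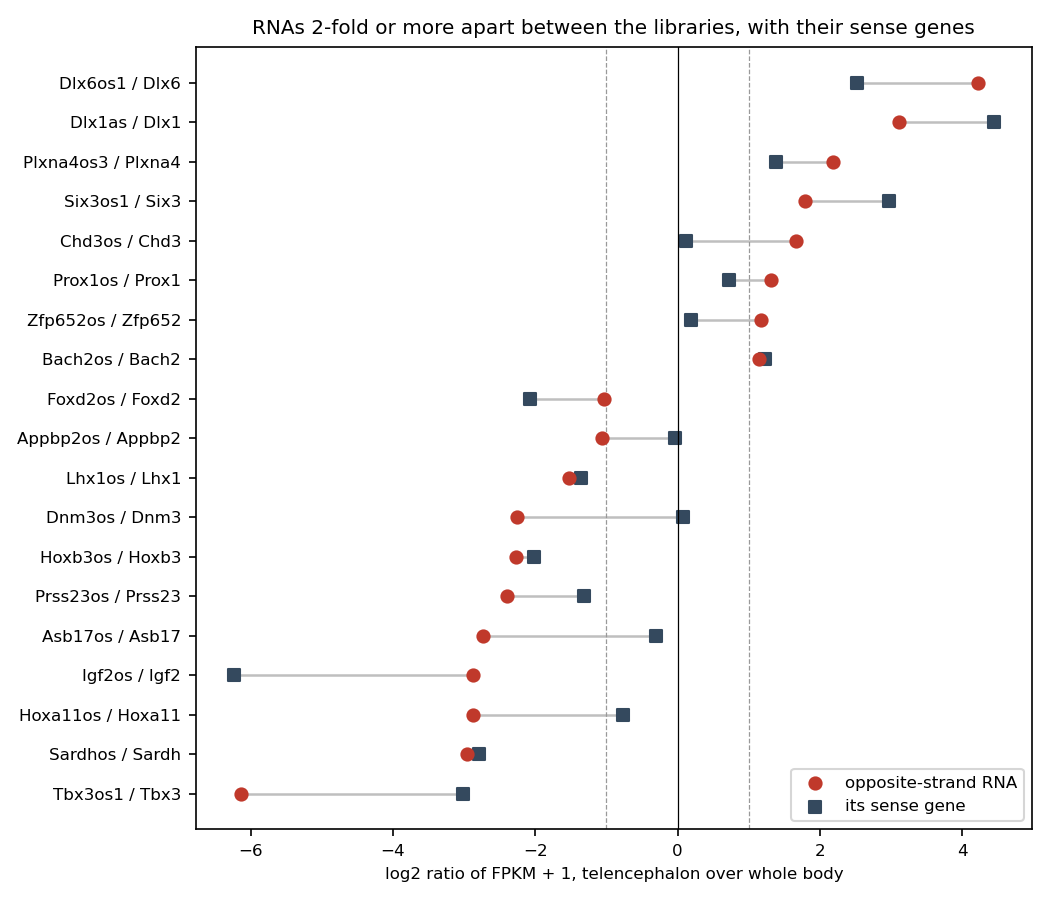
Log2 ratio of telencephalon to whole body (after adding 1 FPKM, x axis) for the 19 opposite-strand RNAs past 2-fold (circles) and their sense genes (squares), with a line joining each pair and dashed lines at 2-fold. Among the RNAs, Dlx6os1 lies farthest to the right at 4.23 and Tbx3os1 farthest to the left at -6.14.

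Among regulators of the forebrain, 26 of 28 measured genes of a list of 30 were past 2-fold higher in telencephalon and none lower, with a median log2 ratio of 2.81. This list and the trunk list were written with earlier results of these data known. Of its genes, 7 have opposite-strand RNAs among the members, 8 RNAs in all, of which 5 were measured. Dlx6os1, the mouse Evf transcript, had 32.9 FPKM in telencephalon and 0.807 FPKM in whole body. Its sense gene Dlx6, a homeobox factor of GABAergic neurons, had 27.2 FPKM in telencephalon and 3.89 FPKM in whole body. The RNA was thus 40.8-fold and the sense gene 7.0-fold higher, and the RNA stood at 121% of the level of Dlx6 in telencephalon and 20.7% in whole body. About 3142 fragments in telencephalon and 100 in whole body lie behind the RNA, a depth-scaled ratio of 40.5 (33.2 to 50). Both annotated isoforms were high: the isoform of 4608 bases had 17.9 FPKM in telencephalon and 0.460 FPKM in whole body, and that of 4446 bases had 15 FPKM in telencephalon and 0.346 FPKM in whole body. The Dlx6os1 gene spans chr6:6820189-6871592 on the minus strand. Its 4608-base isoform crosses the whole of Dlx6 (chr6:6863334-6868568). The 4446-base isoform, with 45.6% of the telencephalon signal, starts at chr6:6861591, outside Dlx6. No annotated exon base of Dlx6os1 is shared with Dlx6. Exons of other genes hold 10.7% of its leading isoform. They include Gm27905 on the other strand, at 25.6 FPKM in telencephalon and 0 FPKM in whole body.

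The RefSeq promoter window (250 bases before to 50 after the annotated start) nearest to the start of a major Dlx6os1 isoform is shown because this RNA has the largest ratio among the measured members. It lies at chr6:6861634-6861933 on the minus strand of GRCm38.p6, with its start 92 bases from that of the 4446-base isoform, and capitals mark TAATTA, the core of many homeodomain recognition sequences.
Dlx6os1 window: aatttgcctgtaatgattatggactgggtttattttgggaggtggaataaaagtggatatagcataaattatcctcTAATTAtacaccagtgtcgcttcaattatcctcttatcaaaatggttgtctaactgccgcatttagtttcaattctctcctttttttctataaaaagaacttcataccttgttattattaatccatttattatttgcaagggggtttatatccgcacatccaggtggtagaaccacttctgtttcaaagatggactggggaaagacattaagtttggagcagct
The motif reads the same on both strands and occurs in 5.29% of 32851 RefSeq promoter windows of the same length. The match is a description and not a shown binding site. The window holds 3 CG dinucleotides, against a median of 7.0 over all windows.

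Dlx1as was also higher, but its level relative to the sense gene was similar in both libraries. It had 10.3 FPKM in telencephalon and 0.314 FPKM in whole body, and Dlx1, a homeobox factor of the same neurons, had 140 FPKM in telencephalon and 5.46 FPKM in whole body. The RNA was 32.8-fold and Dlx1 25.6-fold higher, and the RNA stood at 7.39% of Dlx1 in telencephalon and 5.76% in whole body. The RNA rests on about 73 fragments in telencephalon and 3 in whole body, a ratio of 31.4 (10.3 to 156). Its leading isoform of 647 bases has 51.8% of its bases in Dlx1 exons, so RNA and sense reads cannot be told apart there. Dlx6os2, an unspliced transcript of 1354 bases within Dlx6, had 1.17 FPKM in telencephalon and 0.231 FPKM in whole body and was within 2-fold on the log2(FPKM + 1) scale. Dlx6 exons hold 7.68% of Dlx6os2. Reads of unspliced Dlx6 RNA in the rest cannot be told apart without the strand, and their part was not tested.

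Six3os1 lies opposite Six3, a homeobox gene of the anterior forebrain and eye, and differed less than its sense gene. It had 10.2 FPKM in telencephalon and 2.26 FPKM in whole body, on about 653 fragments in telencephalon and 199 in whole body, a ratio of 4.23 (3.61 to 4.99). Six3 had 17.8 FPKM in telencephalon and 1.39 FPKM in whole body, a 12.8-fold difference. The RNA was therefore at 57.6% of the sense level in telencephalon and at 163% in whole body. Of its leading isoform, 2.59% lies in Six3 exons and 24.7% in exons of other genes, Six3 included.

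Bach2os, Prox1os and Zfp652os were past 2-fold higher as well. Bach2os had 2.92 FPKM in telencephalon and 0.763 FPKM in whole body (85 fragments in telencephalon and 30 in whole body, ratio 3.66, 2.39 to 5.74), beside 19.2 FPKM in telencephalon and 7.60 FPKM in whole body of Bach2, a leucine zipper factor best known from B cells. Prox1os had 3.66 FPKM in telencephalon and 0.875 FPKM in whole body (41 fragments in telencephalon and 13 in whole body, ratio 4.07, 2.14 to 8.28), beside 9.29 FPKM in telencephalon and 5.22 FPKM in whole body of Prox1, a homeobox gene of neural progenitors, lens and lymphatic endothelium. Bach2 was past 2-fold higher, and Prox1 was within 2-fold. Sense exons hold 23.8% of the leading Bach2os isoform, 16.1% of that of Prox1os and 11.4% of that of Zfp652os. Dmrta2os, head to head with the cortical progenitor factor Dmrta2, had 1.16 FPKM in telencephalon and 0.0923 FPKM in whole body, and Dmrta2 had 8.39 FPKM in telencephalon and 1.24 FPKM in whole body. Its log2 ratio of 0.98 fell just inside the threshold. Zfp652os, opposite a zinc finger gene, had 1.97 FPKM in telencephalon and 0.317 FPKM in whole body, with little difference in Zfp652, at 17.3 FPKM in telencephalon and 15.1 FPKM in whole body. The only Zfp652os isoform, of 537 bases, is too short for a fragment estimate here, so its counting error is not known.

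Plxna4os3 and Chd3os complete the RNAs past 2-fold higher. Plxna4os3, within the gene of a semaphorin co-receptor for axon guidance, had 115 FPKM in telencephalon and 24.4 FPKM in whole body, beside 23.1 FPKM in telencephalon and 8.16 FPKM in whole body of Plxna4. All of its signal came from an isoform of 277 bases, 39.7% of them in Plxna4 exons. It is shorter than the fragments, and such isoforms receive a large length correction, so its level is uncertain. Chd3os is annotated as a protein-coding gene that ends tail to tail with Chd3, a chromatin remodeller of the NuRD complex. It had 19.8 FPKM in telencephalon and 5.58 FPKM in whole body, whereas Chd3 had 140 FPKM in telencephalon and 129 FPKM in whole body.

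Forebrain regulators with an opposite-strand RNA under 1 FPKM gave a mixed picture. Emx2os had 0.731 FPKM in telencephalon and 0.616 FPKM in whole body, beside 4.75 FPKM in telencephalon and 1.93 FPKM in whole body of the cortical homeobox gene Emx2. Pax6os1 was listed at 0 in telencephalon and had 0.0596 FPKM in whole body, although Pax6, the paired-box factor of cortical progenitors, had 64.0 FPKM in telencephalon and 10.4 FPKM in whole body. Otx2os1 was listed at 0 in both libraries, beside 5.71 FPKM in telencephalon and 3.84 FPKM in whole body of Otx2.

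Trunk regulators were lower in telencephalon, 34 of 38 measured genes of a list of 41 in the table, with a median log2 ratio of -2.58 and 1 gene higher. Of the opposite-strand RNAs of genes on the list, 5 were measured, each through whole body alone. A lower value in telencephalon was thus fixed by the 1 FPKM floor, and their direction is a description. Hoxa11os, known for its expression in limb and uterus opposite the limb gene Hoxa11, was listed at 0 in telencephalon and had 6.35 FPKM in whole body, on about 163 fragments. The counting interval puts it at least 33.9-fold lower in telencephalon. Its exons share 800 bases with those of Hoxa11, none of them in the leading isoform, which held 54.1% of its signal. Exons of other genes hold 40.7% of that isoform. Hoxa11 itself was listed at 0 in telencephalon and had 0.709 FPKM in whole body, so the RNA stood at 896% of its sense gene there. Hoxb3os had 0.538 FPKM in telencephalon and 6.44 FPKM in whole body (24 fragments in telencephalon and 376 in whole body), 12.1-fold lower (8.04 to 19.2). Hoxb3, a hindbrain and neck Hox gene, had nearly the same values, 0.537 FPKM in telencephalon and 5.25 FPKM in whole body. Since 97.2% of the leading Hoxb3os isoform lies in Hoxb3 exons, the 2 levels cannot be told apart in unstranded reads.

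Lhx1os and Foxd2os lie head to head with their sense genes, with no shared exon bases. Lhx1os had 0.701 FPKM in telencephalon and 3.90 FPKM in whole body, and Lhx1, a LIM homeobox gene of kidney and spinal cord, had 2.99 FPKM in telencephalon and 9.27 FPKM in whole body. The Lhx1os signal came from an isoform of 524 bases in telencephalon and from isoforms of 589 and 599 bases in whole body. These are too short for a fragment estimate here. Foxd2os was listed at 0 in telencephalon and had 1.05 FPKM in whole body, on about 53 fragments, which puts it at least 10.8-fold lower. Foxd2, a forkhead gene of the mesenchyme, had 0.214 FPKM in telencephalon and 4.08 FPKM in whole body. Tbx3os1 had the lowest log2 ratio of all measured RNAs, at 0.196 FPKM in telencephalon and 83.1 FPKM in whole body, beside 0.351 FPKM in telencephalon and 9.96 FPKM in whole body of Tbx3, a T-box gene of limb and heart. In whole body 98.5% of that signal came from an isoform of 282 bases, with 40.8% of them in Tbx3 exons. The isoforms of 300 bases or more gave 0.196 FPKM in telencephalon and 1.24 FPKM in whole body, a log2 ratio of -0.91, which is no longer past 2-fold.

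Members of the same list under 1 FPKM were low in both libraries. Hoxb5os was listed at 0 in telencephalon and had 0.373 FPKM in whole body, and Hoxd3os1 had 0.0322 FPKM in telencephalon and 0.395 FPKM in whole body. Wt1os, head to head with the kidney and gonad gene Wt1 (0.0213 FPKM in telencephalon and 8.6 FPKM in whole body), had 0.0167 FPKM in telencephalon and 0.384 FPKM in whole body. Foxl2os had 0.239 FPKM in telencephalon and 0.639 FPKM in whole body, Tbx3os2 had 0.348 FPKM in telencephalon and 0.300 FPKM in whole body, and Nkx2-2os was listed at 0 in both. None of them reached the level at which its ratio was counted.

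Head-to-head pairs can share promoter sequence where their starts lie close together. Some lie too far apart for their promoter windows to overlap. Chrna1os has a gap of 4511 bases to Chrna1, and Foxo6os has a gap of 4000 bases to Foxo6. For Lhx1os and Map2k3os the RefSeq windows overlap those of the sense genes on the other strand, and they are shown for that reason. Capitals mark CCAAT, or ATTGG where the motif lies on the other strand.
Lhx1os window, chr11:84525410-84525709, plus strand: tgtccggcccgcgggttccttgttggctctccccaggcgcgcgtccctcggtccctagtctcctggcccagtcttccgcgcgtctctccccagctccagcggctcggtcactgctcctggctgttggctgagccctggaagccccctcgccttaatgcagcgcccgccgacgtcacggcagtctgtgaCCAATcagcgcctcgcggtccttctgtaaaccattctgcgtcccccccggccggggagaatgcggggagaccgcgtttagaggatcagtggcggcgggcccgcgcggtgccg
Map2k3os window, chr11:60931818-60932117, minus strand: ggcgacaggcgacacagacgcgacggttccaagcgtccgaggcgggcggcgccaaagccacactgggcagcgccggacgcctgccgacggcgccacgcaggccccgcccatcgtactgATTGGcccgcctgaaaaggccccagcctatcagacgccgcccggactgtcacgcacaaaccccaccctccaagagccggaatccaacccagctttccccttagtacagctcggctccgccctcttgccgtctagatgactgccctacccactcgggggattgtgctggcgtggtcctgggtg
The Lhx1os window shares 225 bases with that of Lhx1 and holds 33 CG dinucleotides, and the Map2k3os window shares 286 bases with that of Map2k3 and holds 30. CCAAT, searched on both strands, occurs in 37.4% of all RefSeq windows, so these matches set neither apart. Over 28 head-to-head members with a window, the median was 17.5 CG dinucleotides, beside 8.0 over 85 members that overlap sense exons and 5.0 over 47 that overlap without shared exon bases. Lhx1os and Lhx1 were both past 2-fold lower. Map2k3os, at 0.414 FPKM in telencephalon and 1.44 FPKM in whole body, was 3.48-fold lower by FPKM, on about 9 fragments in telencephalon and 41 in whole body, and its log2 ratio of -0.79 lay within the threshold. It stood beside 9.19 FPKM in telencephalon and 46.9 FPKM in whole body of Map2k3, a kinase upstream of p38.

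Dnm3os was past 2-fold lower, with its sense gene within 2-fold. Its main isoform of 7926 bases lies inside Dnm3, a dynamin gene of neurons, and it is known as the host of miRNAs of skeletal and connective tissue. Dnm3os had 0.0463 FPKM in telencephalon and 3.99 FPKM in whole body, on about 8 fragments in telencephalon and 890 in whole body, 86.2-fold lower (43.6 to 200). Dnm3 had 10.1 FPKM in telencephalon and 9.51 FPKM in whole body, so the RNA stood at 0.456% of its sense gene in telencephalon and 41.9% in whole body. By estimated fragments Dnm3 was 1.62-fold higher in telencephalon (1.49 to 1.77). The leading Dnm3 isoform had 7523 bases in telencephalon and 1389 bases in whole body. The pair shares no exon bases. The mature miRNAs inside Dnm3os, from RefSeq, are shown because they are the known products of this transcript, with the seed (bases 2 to 8) in capitals.
mmu-miR-199a-5p: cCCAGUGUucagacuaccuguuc
mmu-miR-199a-3p: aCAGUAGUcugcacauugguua
mmu-miR-214-5p: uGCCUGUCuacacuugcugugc
mmu-miR-214-3p: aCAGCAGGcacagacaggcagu
No 2 of these share a seed. They lie 221, 260, 5774 and 5815 bases from the start of Dnm3os on the plus strand of chromosome 1, and the libraries do not measure mature miRNAs.

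Igf2os was lower together with Igf2, the fetal growth factor made in mesoderm and liver. Igf2os had 0.267 FPKM in telencephalon and 8.27 FPKM in whole body, on about 27 fragments in telencephalon and 1054 in whole body, 30.3-fold lower (20.7 to 46.1). Igf2 had 31.4 FPKM in telencephalon and 2442 FPKM in whole body, 77.9-fold lower. The RNA stood at 0.851% of Igf2 in telencephalon and 0.339% in whole body. Of its leading isoform, 2.05% lies in Igf2 exons and 26.0% in exons of other genes, Igf2 included. With Igf2 at this level, reads from the shared bases can enter the Igf2os value, and their part was not tested.

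The remaining RNAs past 2-fold lower face genes of other kinds. Prss23os had 1.46 FPKM in telencephalon and 12.0 FPKM in whole body (34 fragments in telencephalon and 365 in whole body), 8.32-fold lower (5.85 to 12.2), beside 0.274 FPKM in telencephalon and 2.16 FPKM in whole body of the serine protease gene Prss23. It stood above its sense gene in both libraries, at 5.32 times its level in telencephalon and 5.54 times in whole body, with 63.4% of its leading isoform in Prss23 exons. Appbp2os had 4.67 FPKM in telencephalon and 10.8 FPKM in whole body, with almost equal levels of Appbp2, at 18.2 FPKM in telencephalon and 18.6 FPKM in whole body. The annotated exons of this pair share 356 bases. The isoform with 100% of the Appbp2os signal in telencephalon and 99.0% in whole body was not annotated. The length of that isoform, its fragments and its part in Appbp2 exons are thus unknown. Sardhos was listed at 0 in telencephalon and had 6.76 FPKM in whole body, all from an isoform of 265 bases with 70.9% of its bases in Sardh exons, beside 2.02 FPKM in telencephalon and 19.9 FPKM in whole body of Sardh, a mitochondrial enzyme of sarcosine breakdown. Asb17os was listed at 0 in telencephalon and had 5.68 FPKM in whole body, where it stood at 16.2 times the level of Asb17 (0.0991 FPKM in telencephalon and 0.351 FPKM in whole body). Asb17 exons hold 22.6% of it.

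Both members were measured in 50 pairs. Of these, 5 were past 2-fold higher together (Dlx6os1, Dlx1as, Six3os1, Plxna4os3 and Bach2os with their sense genes) and 7 lower together (Tbx3os1, Sardhos, Igf2os, Prss23os, Hoxb3os, Lhx1os and Foxd2os). None went in opposite directions, 23 were within 2-fold on both sides, and in the rest a single member was past 2-fold: the RNA higher in 3 and lower in 2, the sense gene higher in 6 and lower in 4. The same direction past 2-fold was thus seen in 24.0% of pairs, beside 13.7% of 204 measured pairs of other annotated antisense genes and the coding gene that they overlap, of which 6.37% were higher together, 7.35% lower together and 3 went in opposite directions. The log2 ratios of the RNA and of its sense gene were 1 or more apart in 20 pairs (40.0%), beside 23.5% of the other antisense pairs. Which pairs these are depends on the 1 FPKM added. With 0.1 FPKM added, 22 pairs were 1 or more apart, but 15 pairs entered or left this class and 1 more, Dmrta2os, changed sign. Dlx1as, whose level relative to Dlx1 was similar in both libraries, is among those that left it. The Spearman correlation of the log2 ratios was 0.64 over the 50 pairs and 0.58 over the 204. These are descriptions across pairs of the same 2 libraries, and pairs can share reads. Dlx6os1, Dlx1as, Bach2os, Tbx3os1, Sardhos, Igf2os, Hoxb3os, Lhx1os and Foxd2os reached 1 FPKM in 1 library only. The floor thus fixed the direction of these RNAs, and the share of pairs in the same direction is no test of agreement. The same floor was applied to the 204 other pairs. Those are all annotated antisense genes that overlap the coding gene. Of the 50 pairs, 13 lay head to head and 3 tail to tail, and some of the RNAs are protein-coding, so the 2 sets are not alike. Among the 20 pairs without shared exon bases, 1 (Dlx6os1) was higher together and 2 (Lhx1os and Foxd2os) lower together. Lhx1os and Foxd2os were no longer past 2-fold with 5 FPKM added.

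**Figure D2:**
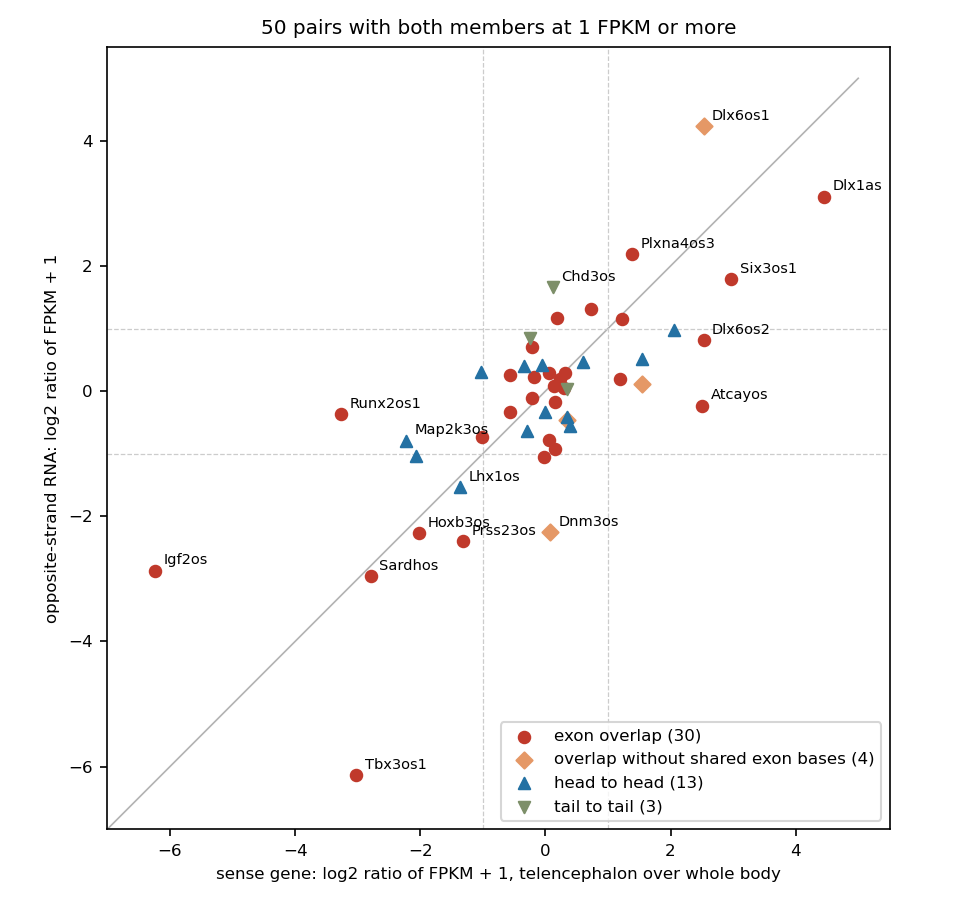
Log2 ratio of telencephalon to whole body (after adding 1 FPKM) of each opposite-strand RNA (y axis) against that of its sense gene (x axis), for the 50 pairs with both members measured, with symbols for position in the annotation, dashed lines at 2-fold and a diagonal of equal ratios. No pair past 2-fold on both axes lies in the upper left or lower right corner.

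In 10 pairs only the sense gene was past 2-fold on the log2(FPKM + 1) scale. For low RNAs that class follows from the 1 FPKM added: by FPKM, Dlx6os2 was 5.04-fold and Lrp8os3 2.40-fold higher, and Arhgap27os2 was 2.79-fold lower beside 2.59-fold for Arhgap27. Dmrta2os and Map2k3os, described above, also had larger folds of FPKM. Atcay, a neuronal gene of Cayman ataxia, had 72.9 FPKM in telencephalon and 12.0 FPKM in whole body, while Atcayos had 0.785 FPKM in telencephalon and 1.10 FPKM in whole body. Lrp8, a reelin receptor, had 43.9 FPKM in telencephalon and 14.4 FPKM in whole body, while Lrp8os2 had 1.11 FPKM in telencephalon and 0.944 FPKM in whole body and Lrp8os3 had 1.07 FPKM in telencephalon and 0.447 FPKM in whole body. Zeb2, a factor of interneurons and neural crest, had 66.5 FPKM in telencephalon and 28.6 FPKM in whole body, while Zeb2os had 2.95 FPKM in telencephalon and 2.43 FPKM in whole body. In these pairs, as with Dlx6os2 and Dmrta2os, the sense gene was higher in telencephalon. The sense gene was lower in the next cases. Runx2, the osteoblast regulator, had 0.650 FPKM in telencephalon and 14.8 FPKM in whole body, while Runx2os1 had 0.674 FPKM in telencephalon and 1.16 FPKM in whole body. Fam120a, an RNA-binding protein, had 27.7 FPKM in telencephalon and 57.4 FPKM in whole body, while Fam120aos had 1.46 FPKM in telencephalon and 0.981 FPKM in whole body. Arhgap27, a GTPase-activating protein, had 1.81 FPKM in telencephalon and 4.69 FPKM in whole body, while Arhgap27os2 had 0.583 FPKM in telencephalon and 1.63 FPKM in whole body. Map2k3os, described above, belongs to the same class. Sense exons hold 65.5% of the leading Runx2os1 isoform, 75.9% of that of Arhgap27os2 and 36.5% of that of Zeb2os, and reads there cannot be assigned to a strand. With exons of further genes the share for Zeb2os is 54.1%.

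The RNAs within 2-fold include several of the most abundant members. Wdr83os, a protein-coding gene opposite the scaffold gene Wdr83, had 70.3 FPKM in telencephalon and 57.4 FPKM in whole body, beside 20.7 FPKM in telencephalon and 19.8 FPKM in whole body of Wdr83, whose exons hold 46.6% of its leading isoform. Rab26os had 19.3 FPKM in telencephalon and 16.1 FPKM in whole body, nearly all from an isoform of 298 bases, beside 0.471 FPKM in telencephalon and 0.391 FPKM in whole body of the GTPase gene Rab26. With so short an isoform the level of Rab26os is uncertain, as for Plxna4os3. Rab10os, with no sense exon bases in its leading isoform, had 17.3 FPKM in telencephalon and 16.3 FPKM in whole body, beside 39.6 FPKM in telencephalon and 36.2 FPKM in whole body of the GTPase gene Rab10. These 3 differed by less than 1.3-fold. Slc7a6os, a coding gene tail to tail with an amino acid transporter gene, had 13.0 FPKM in telencephalon and 12.6 FPKM in whole body (Slc7a6 22.6 FPKM in telencephalon and 17.6 FPKM in whole body). Brip1os, head to head with the helicase gene Brip1, had 8.97 FPKM in telencephalon and 14.4 FPKM in whole body, on about 834 fragments in telencephalon and 1736 in whole body (Brip1 1.37 FPKM in telencephalon and 1.91 FPKM in whole body). Brip1os was thus several times above its sense gene in both libraries without exon bases shared with Brip1. Exons of other genes hold 11.6% of its leading isoform. Cebpzos had 8.39 FPKM in telencephalon and 9.13 FPKM in whole body (Cebpz 9.05 FPKM in telencephalon and 10.7 FPKM in whole body). Ccpg1os, head to head with the ER-phagy receptor gene Ccpg1, had 7.08 FPKM in telencephalon and 5.05 FPKM in whole body (Ccpg1 5.30 FPKM in telencephalon and 5.57 FPKM in whole body). Sp3os had 5.53 FPKM in telencephalon and 5.31 FPKM in whole body, opposite the zinc finger factor Sp3 (39.8 FPKM in telencephalon and 32.1 FPKM in whole body). Apart from Brip1os, the RNAs of this paragraph differed by less than 1.5-fold.

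The other members within 2-fold lay between 1 FPKM and 7 FPKM at their higher value. Kcnmb4os2 had 4.93 FPKM in telencephalon and 6.47 FPKM in whole body, and Kcnmb4os1 had 1.89 FPKM in telencephalon and 1.42 FPKM in whole body, both opposite a potassium channel subunit gene (Kcnmb4 2.87 FPKM in telencephalon and 4.74 FPKM in whole body). Phtf1os had 3.07 FPKM in telencephalon and 2.47 FPKM in whole body (Phtf1 10.6 FPKM in telencephalon and 12.3 FPKM in whole body), with 63.0% of its leading isoform in exons of other genes. Zfp335os had 1.94 FPKM in telencephalon and 1.57 FPKM in whole body (the zinc finger gene Zfp335 17.5 FPKM in telencephalon and 14.7 FPKM in whole body). In these 3 genes neither strand was past 2-fold. Junos had 1.63 FPKM in telencephalon and 1.96 FPKM in whole body (the AP-1 subunit gene Jun 23.3 FPKM in telencephalon and 20.7 FPKM in whole body). Dhrs13os had 1.51 FPKM in telencephalon and 1.05 FPKM in whole body (Dhrs13 14.3 FPKM in telencephalon and 11.3 FPKM in whole body). Cep83os had 1.28 FPKM in telencephalon and 1.89 FPKM in whole body (the centriole gene Cep83 6.0 FPKM in telencephalon and 6.02 FPKM in whole body). Their sense genes were likewise close between the libraries. Znrd1as had 1.87 FPKM in telencephalon and 1.17 FPKM in whole body (the RNA polymerase I subunit gene Znrd1 35.4 FPKM in telencephalon and 45.3 FPKM in whole body). Ino80dos had 1.11 FPKM in telencephalon and 2.64 FPKM in whole body (the chromatin remodelling gene Ino80d 5.95 FPKM in telencephalon and 5.68 FPKM in whole body). B9d1os had 1.04 FPKM in telencephalon and 0.484 FPKM in whole body (the ciliary gene B9d1 27.4 FPKM in telencephalon and 17.8 FPKM in whole body).

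Several RNAs within 2-fold on the log2(FPKM + 1) scale had larger folds of FPKM, some on few fragments. Rsf1os2 had 1.07 FPKM in telencephalon and 0.266 FPKM in whole body, on about 10 fragments in telencephalon and 3 in whole body, opposite the chromatin gene Rsf1 (5.57 FPKM in telencephalon and 6.65 FPKM in whole body). Fbxl12os had 1.88 FPKM in telencephalon and 0.602 FPKM in whole body, tail to tail with an F-box gene (Fbxl12 10 FPKM in telencephalon and 12.1 FPKM in whole body). Ube4bos3 had 0.105 FPKM in telencephalon and 1.10 FPKM in whole body, on about 1 fragments in telencephalon and 14 in whole body, opposite the ubiquitin ligase gene Ube4b (73.7 FPKM in telencephalon and 65.9 FPKM in whole body). The folds of such low RNAs carry wide counting error. Stamos had 0.635 FPKM in telencephalon and 1.40 FPKM in whole body (the endosomal sorting gene Stam 35.8 FPKM in telencephalon and 26.9 FPKM in whole body). Nr6a1os had 0.698 FPKM in telencephalon and 1.34 FPKM in whole body (the orphan nuclear receptor gene Nr6a1 2.10 FPKM in telencephalon and 1.44 FPKM in whole body). Both lay below 1 FPKM in telencephalon, as did Tnfsf13os, with 0.182 FPKM in telencephalon and 1.04 FPKM in whole body (the cytokine gene Tnfsf13 0.0376 FPKM in telencephalon and 0.117 FPKM in whole body).

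Few RNAs stood above their sense gene. Among RNAs of 1 FPKM or more, 8 of 36 did so in telencephalon and 12 of 41 in whole body. Plxna4os3, Wdr83os, Rab26os, Brip1os, Prss23os and Kcnmb4os2 did so in both libraries. Dlx6os1 and Ccpg1os did so in telencephalon, and Tbx3os1, Asb17os, Hoxa11os, Hoxb3os, Six3os1 and Tnfsf13os in whole body. Some of these placings are uncertain. Without isoforms under 300 bases, Plxna4os3 was at 0 in both libraries. Rab26os was then at 0 in telencephalon and 0.659 FPKM in whole body, and Tbx3os1 at 1.24 FPKM in whole body. Sense exons hold 97.2% of the leading isoform of Hoxb3os, 63.4% for Prss23os, 46.6% for Wdr83os and 42.9% for Kcnmb4os2. Where the sense gene had 1 FPKM or more, the median level of the RNA was 0.431% of the sense level over 196 pairs in telencephalon and 1.08% over 230 pairs in whole body. Over pairs with the RNA above 0 it was 3.45% over 118 pairs in telencephalon and 2.80% over 160 pairs in whole body.

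**Figure D3:**
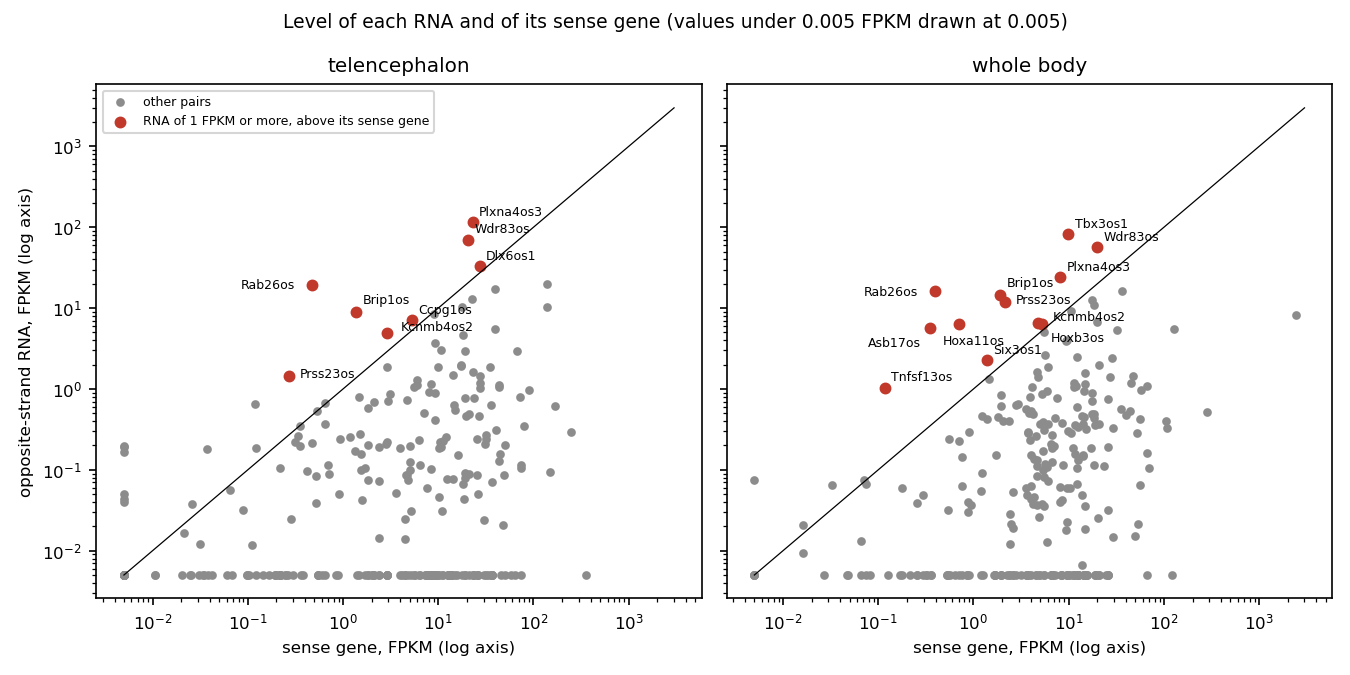
Level of each opposite-strand RNA (y axis) against that of its sense gene (x axis), in FPKM on log axes, in telencephalon (left) and whole body (right), with values near 0 drawn at the edge and a diagonal of equal levels. RNAs of 1 FPKM or more above the diagonal are named, 8 in telencephalon and 12 in whole body, and most pairs lie far below it.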

How the data were processed

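The authors deposited FPKM per gene and per isoform, 1 column per library, made with TopHat, Cufflinks and Cuffdiff on GRCm38, per the submitters' processing notes. Versions and the annotation release are not given in the sources used here. The TruSeq v2 kit, named in the labels' protocols, enriches polyadenylated RNA without keeping the strand. FPKM are not counts, so no count model was run.

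Genes were matched by Ensembl identifier to GENCODE M21 (42276 of 43437). Log2 ratios are telencephalon over whole body with a pseudocount of 1 FPKM, and a gene was measured if either library reached 1 FPKM. A name on several rows was represented by the row with the higher sum. Depth was fitted to the lowest steps of genes with a single isoform. With it, 87.8% of telencephalon values and 90.0% of whole body values came out within 0.1 fragments of a whole number, where 20% would by chance. Fragments were estimated only where isoforms of 600 bases or more held the signal, so ratios and intervals are missing for some short RNAs. Ratio intervals are exact 95% binomial intervals, scaled by depth. The counting of calls and the depth fit were tested on simulated data. Pairs of other antisense genes came from the same annotation.

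Every pair whose RNA reached 1 FPKM was named, except a pair that is not reported here. Below that, naming was for pairs with a forebrain or trunk regulator as sense gene, and exceptions are stated. The members and the lists were chosen with earlier results of these data known. Python 3.11.15, pandas 2.3.3, numpy 2.4.6, scipy 1.17.1 and matplotlib 3.10.9 were used.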

Additional observations from a re-analysis of the deposited data

How the results depend on the processing

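No paired analysis was possible because each group has 1 library, and for the same reason no library could be left out. Counts near the threshold depend on the value added to each FPKM. With 0.1 FPKM, 13 RNAs were past 2-fold higher, 17 lower, and 8 pairs higher together. With 5 FPKM, 5 were higher and 7 lower, 23 sense genes were lower, and 3 pairs were lower together. At a floor of 5 FPKM, 5 RNAs were higher and 4 pairs lower together. At 4-fold, 2 pairs were higher and 4 lower together. Without shared exon bases, 1 pair was higher and 2 lower together. The median log2 ratio of the RNAs was 0.03 (5 FPKM added), -0.02 (no filter), -0.03 (floor of 5 FPKM), 0.06 (common upper quartile), 0.20 (rescaled to TPM), 0.04 (no isoforms under 300 bases) and -0.17 (non-coding members only, an alternative chosen after seeing the data). TPM moved the median of all genes to -0.01 from -0.16. The median log2 ratio of RNA to sense level was -1.74 in telencephalon and -1.83 in whole body, and became -2.34 in telencephalon and -2.51 in whole body with 0.1 FPKM added, and -1.85 in telencephalon and -2.14 in whole body without short isoforms.

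Of the 19 RNAs past 2-fold, 19 remained so with 0.1 FPKM added and with the upper quartile, 18 in TPM (without Appbp2os), 12 with 5 FPKM added, and 16 without short isoforms (without Plxna4os3, Sardhos and Tbx3os1). Adding less FPKM can only enlarge a ratio, so the result with 0.1 FPKM was fixed in advance. The upper quartile factor was 1.01 and changes little. Those lost with 5 FPKM added were Appbp2os, Bach2os, Dnm3os, Foxd2os, Lhx1os, Prox1os and Zfp652os. No pair went in opposite directions under the alternatives. The RNA minus sense difference of log2 ratios turned for Dmrta2os to 0.05 with 0.1 FPKM added, and for Tbx3os1 to 2.11 without short isoforms. For Dlx1as it was -1.34, and 0.00 in size with 0.1 FPKM added. The causes were not tested. The depth limits RNAs under about 0.1 FPKM, where a few fragments decide a value.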
